A study of Caenorhabditis elegans with 11 samples.

Results

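The comparison concerns loss of set-32 in Caenorhabditis elegans that already lack met-2 and set-25, read as RNA polymerase II (Pol II) occupancy along the genome. Its members are the libraries in which set-32 was lost together with met-2 and set-25, set against the libraries that lacked met-2 and set-25 but had set-32 intact, 4 of the 11 samples in all. A library's place in the comparison follows from its genotype, and no measured value enters that rule. The alleles were red11 for set-32, n4256 for met-2, n5021 for set-25 and tm1200 for hrde-1. In the hrde-1 intact pair, set-32 met-2 set-25 was set against met-2 set-25. In the hrde-1 mutant pair both sides also lacked hrde-1. Loss of met-2 and set-25 was thus common to all 4 libraries, and the libraries that retain set-32 are called the controls. A further 4 Pol II libraries in which MET-2 and SET-25 were intact (set-32, set-32 hrde-1, N2 and hrde-1) gave the same pairs in the other background, called intact here. All were whole young adult hermaphrodites fed on OP50 bacteria, 1 library per genotype, and no source used here says how many cultures went into a library. Whole animals mix germline and soma, so fewer cells of a type and less Pol II per cell cannot be told apart.

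HRDE-1 is an Argonaute protein that carries small RNAs into germline nuclei, where it directs repression of matching genes and repeats, a process called nuclear RNAi. MET-2 and SET-25 add methyl groups to lysine 9 of histone H3, a mark of repressed chromatin, and SET-32, another SET domain protein, acts in nuclear RNAi. Chromatin immunoprecipitation of Pol II followed by sequencing (ChIP-seq) reads how much of the polymerase sits on a stretch of DNA, which serves as a measure of transcription. The series as a whole addresses the part that SET-32 plays in silencing by nuclear RNAi. The comparison described here asks what its loss adds once MET-2 and SET-25 are gone.

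Values are RPKM, which relates reads to bin length and to all mapped reads of a library, in 100257 bins of 1 kb. In bins of equal length RPKM is a share of a library's reads. Read depth, estimated from the steps between low values, was 6.06 M reads in the set-32 met-2 set-25 library and 3.06 M in the hrde-1 mutant set-32 met-2 set-25 library, against 3.0 M in the met-2 set-25 library and 6.59 M in the met-2 set-25 hrde-1 library. The counting error of a bin at 10 RPKM, in that order of libraries, was 12.8%, 18.1%, 18.3% and 12.3%, which covers counting only. At the bin from 13288001 to 13289000 of chromosome III, singled out after its values were seen, set-32 met-2 set-25 had 0.17 RPKM and the other 3 libraries of the comparison 0, while the 4 libraries with MET-2 and SET-25 intact had 16.8 to 19.99 RPKM. The bin therefore separates the libraries by their met-2 set-25 label. No gene was assigned to any bin, because the only gene positions available are on a different coordinate set.

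The set-32 met-2 set-25 libraries had the most even coverage. Dividing the 90th by the 10th percentile of all bins gave 3.72 in the set-32 met-2 set-25 library and 4.31 in the hrde-1 mutant set-32 met-2 set-25 library, against 7.63 in the met-2 set-25 library and 12.2 in the met-2 set-25 hrde-1 library. The other 4 libraries lay between 12.01 and 24.96. Of these, set-32 and set-32 hrde-1, which also lack SET-32, had 24.96 and 14.5, against 12.01 in N2 and 14.1 in hrde-1. The top decile of bins held 30.01% and 30.7% of the summed RPKM in the set-32 met-2 set-25 libraries, without and with hrde-1 loss, against 37.2% and 42.9% in their controls. Where N2 was lowest, the low bins were higher in the set-32 met-2 set-25 libraries than in their controls. In the lowest decile of tested bins by N2 level the median was 5.32 RPKM in the set-32 met-2 set-25 library and 4.97 RPKM in the hrde-1 mutant set-32 met-2 set-25 library, against 3.33 RPKM in the met-2 set-25 library and 2.27 RPKM in the met-2 set-25 hrde-1 library. In the highest decile the order was turned round, with medians of 21.9 and 22.8 RPKM in the set-32 met-2 set-25 libraries, against 28.0 and 29.9 RPKM in their controls. The median difference per bin thus passed from 0.52 in the lowest to -0.33 in the highest decile in the hrde-1 intact pair, and from 0.89 to -0.36 in the hrde-1 mutant pair, on the log2(RPKM + 1) scale used throughout. Quantile normalization, which gives every library the same distribution of values, brought all 20 of these medians to between -0.11 and 0.11.

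**Figure D1:**
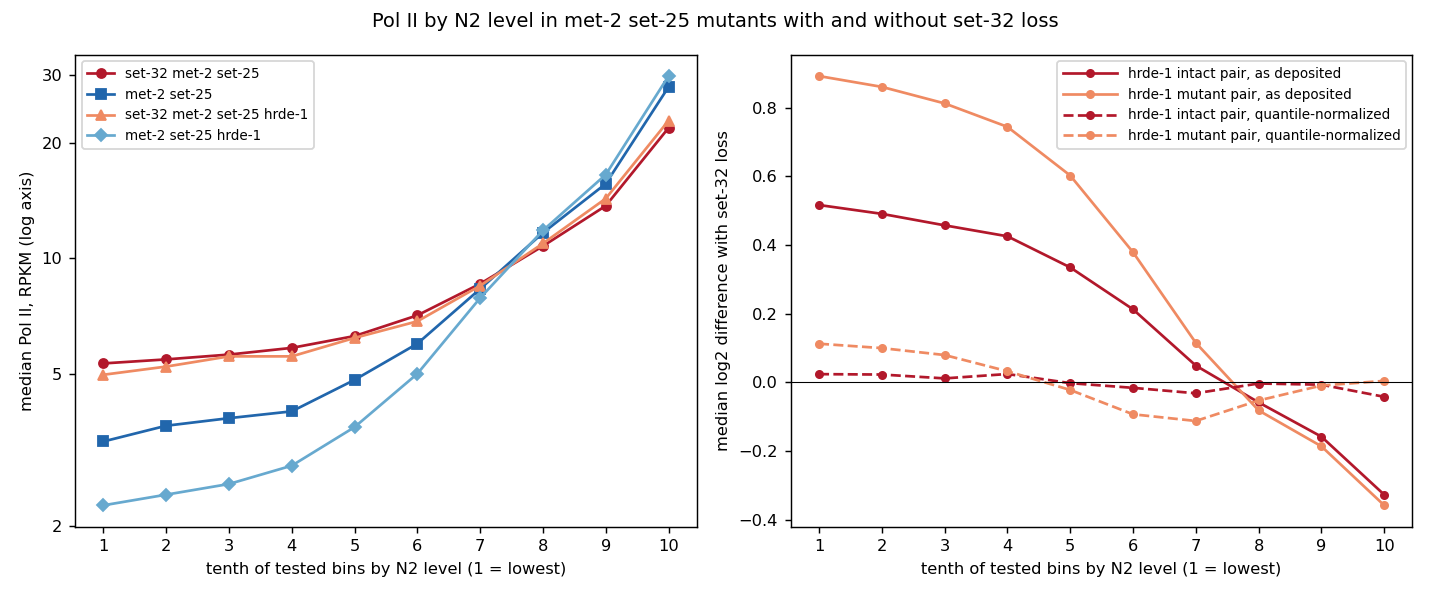
Median Pol II per decile of tested bins ranked by N2 level, in RPKM on a log axis (left), and the median log2 difference with set-32 loss in each pair (right), as deposited (solid) and quantile-normalized (dashed). The set-32 met-2 set-25 libraries lie above their controls in the lowest deciles and below them in the highest, and the quantile-normalized medians stay between -0.11 and 0.11.

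Each result is therefore given on both scales. The median difference over the 100027 tested bins, those with a mean of at least 2 RPKM over the 8 Pol II libraries, was 0.19 as deposited and -0.003 after quantile normalization in the hrde-1 intact pair. It was 0.38 as deposited and 0.006 after quantile normalization in the hrde-1 mutant pair. Evenness, and the prefix of the table's column names, moved with the comparison. Both controls carried the prefix SG0615, while set-32 met-2 set-25 carried SG1115 and the hrde-1 mutant set-32 met-2 set-25 library carried SG0117. No source used here says what the prefix stands for. No prefix held libraries on both sides of the comparison, so no value within a prefix exists. Within neither pair can set-32 loss and the prefix be told apart. SG1115 held the set-32 met-2 set-25 library alone. A fit with the prefix as a term, given below, therefore takes its set-32 effect in met-2 set-25 mutants from the hrde-1 mutant set-32 met-2 set-25 library alone. The part of evenness in the results below was not tested.

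The pairs moved together more as deposited than after normalization. As deposited, 70.4% of bins had the same sign in both pairs, 51.6% higher in both and 18.9% lower in both, and the Pearson correlation of the pairs across bins was 0.445. After quantile normalization the same sign was found in 53.2% of bins and the correlation was 0.152. In the libraries with MET-2 and SET-25 intact the pairs had the same sign in 52.6% and 51.6% of bins on the 2 scales, with correlations of 0.027 and 0.026. Bins are not independent replicates, and all bins of a pair come from the same 2 libraries. The correlation grew with level, to 0.290 as deposited and 0.275 after normalization in the highest decile by N2.

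Among bins past the adjusted threshold, more were lower than higher with set-32 loss in met-2 set-25 mutants, while over all bins as deposited more were higher. With limma, over all 8 libraries and Benjamini-Hochberg adjusted p under 0.05, 125 bins rose and 545 fell as deposited, 0.125% and 0.545% of the tested bins. After quantile normalization 220 rose and 497 fell, 0.22% and 0.497%. Every called bin differed by at least 2-fold, and the median log2 difference of called bins was 1.69 for higher and -1.36 for lower ones as deposited, and 1.48 and -1.48 after normalization. Bins called on both scales numbered 65 higher, which is 52.0% of the calls as deposited and 29.5% of those after normalization. The 307 lower bins called on both scales were 56.3% and 61.8% of the 2 lists, and no bin was called in opposite directions on the 2 scales. Unadjusted p was under 0.05 in 17402 higher and 5742 lower bins as deposited (17.4% and 5.74%), and in 5560 and 6602 after normalization (5.56% and 6.60%).

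These counts rest on a small design. No genotype had a replicate, so limma took its error from how far the 8 libraries scatter about the fitted genotype terms, which leaves 3 residual degrees of freedom, and a comparison of the 4 libraries alone by exact permutation has 6 assignments and a smallest two-sided p of 0.333. Without the met-2 set-25 hrde-1 library limma called 4 higher and 4 lower bins as deposited, and 4 and 0 after normalization. Without the hrde-1 mutant set-32 met-2 set-25 library it called 4 and 9 as deposited and 58 and 94 after normalization, and without the set-32 met-2 set-25 library it called 23 and 236, and 116 and 681. Leaving out any of the other 5 libraries also moved at least 1 of the 4 counts by over 1.5 times. With the column prefix as a term, 39 higher and 3 lower bins were called as deposited, of which 2 and 1 were among the 125 and 545, and 12 and 0 after normalization, none of them among the 220 and 497. Higher calls also outnumbered lower ones as deposited at a pseudocount of 5 (3783 and 1441), with the 4 libraries alone and hrde-1 status as a covariate (5416 and 1783), and without set-32 (2057 and 1243), set-32 hrde-1 (2114 and 1301) or met-2 set-25 (1588 and 1157), and after normalization without met-2 set-25 (401 and 324). A rule of size with no test required a log2 difference of at least 1 in both pairs and at least 10 RPKM in both higher libraries. It found 81 bins higher and 402 lower as deposited (0.081% and 0.402%), 235 and 437 after normalization (0.235% and 0.437%), and 77 and 233 on both scales (0.077% and 0.233%).

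**Figure D2:**
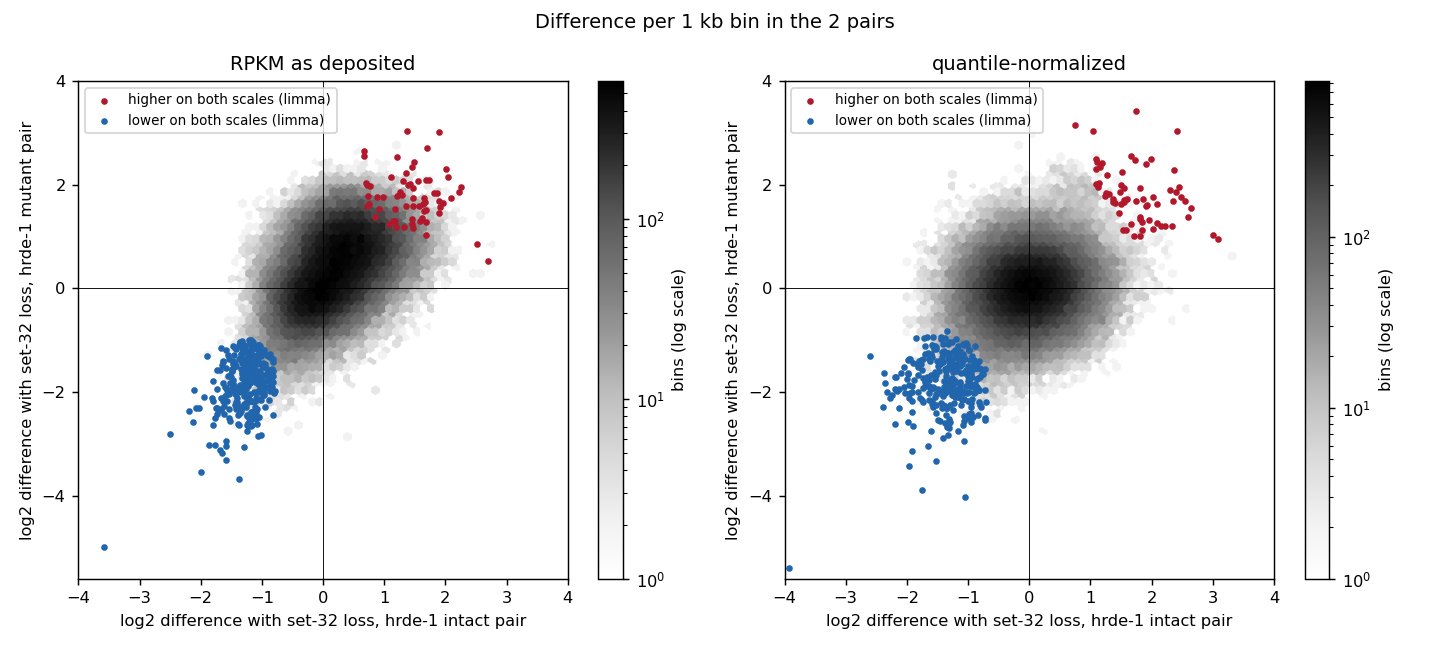
Log2 difference with set-32 loss per 1 kb bin in the hrde-1 intact pair (x axis) and the hrde-1 mutant pair (y axis), as deposited (left) and quantile-normalized (right), with shading for the number of bins on a log scale. Red points are the 65 bins higher and blue points the 307 bins lower on both scales, and the slope of the cloud seen as deposited is mostly gone after normalization.

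Most called bins stood alone. After normalization the 220 higher bins formed 162 regions when called bins with at most 1 bin between them were joined, and 131 of these were a single bin. The 497 lower bins formed 463 regions, 433 of them a single bin. Of 20 higher regions named by size, 10 lay on chromosome V, and 16 were called on both scales. Of 20 lower regions named by size, 19 were called on both scales. None of the 40 overlapped bins that the table marks as GRTS or GRH, which are described below, and 1 lower region overlapped a bin marked misanotated. The GRTS and GRH marks cover only 191 and 215 of the 100027 tested bins, so their absence from 40 short regions says little about them. In all 40 the set-32 met-2 set-25 libraries did not overlap with their controls. Both lay above the other 6 libraries in 15 of the higher regions and below them in 12 of the lower ones, and both controls were the 2 lowest libraries in 10 of the higher and the 2 highest in 10 of the lower regions. Since the regions were chosen for the difference, the groups lie apart in them largely through that choice, and these counts are a description. The share of all tested bins in which the groups lie apart was not counted. As deposited, 39 of the 40 were called. Of these 39 calls, 36 were lost without the met-2 set-25 hrde-1 library, 34 without the hrde-1 mutant set-32 met-2 set-25 library, 24 without the set-32 met-2 set-25 library and 4 without the met-2 set-25 library, and the adjusted p given below are those with all 8 libraries. For a region of several bins, p is the lowest adjusted limma p among them and the SE is their mean.

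Among the higher regions, the stretch from 13083001 to 13085000 of chromosome IV had the largest difference after normalization. It held 32.5 RPKM in the set-32 met-2 set-25 library and 37.7 RPKM in the hrde-1 mutant set-32 met-2 set-25 library, against 10.8 RPKM in the met-2 set-25 library and 3.71 RPKM in the met-2 set-25 hrde-1 library. Both set-32 met-2 set-25 libraries lay above both controls, and the log2 difference was 2.33 ± 0.31 as deposited and 2.66 ± 0.30 after normalization (limma SE, adjusted p = 0.0019 and 0.0033). In the other background the stretch held 19.4 and 12.8 RPKM in set-32 and set-32 hrde-1, against 25.4 and 27.4 RPKM in N2 and hrde-1, so the 2 controls of the comparison stood lowest of the 8 libraries.

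The bin at 20157001 to 20158000 of chromosome V had the highest level of the named higher regions. It read 138 RPKM in the set-32 met-2 set-25 library and 75.4 RPKM in the hrde-1 mutant set-32 met-2 set-25 library, against 31.6 RPKM in the met-2 set-25 library and 21.8 RPKM in the met-2 set-25 hrde-1 library. The groups did not overlap, and limma gave 1.92 ± 0.33 as deposited and 2.32 ± 0.33 after normalization (adjusted p = 0.0121 and 0.0109). The other background went the other way here, with 19.4 and 38.3 RPKM in set-32 and set-32 hrde-1, against 54.8 and 61.2 RPKM in N2 and hrde-1. The difference between backgrounds passed the test on both scales (adjusted p = 0.0151 as deposited and 0.0343 after normalization).

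A short stretch of chromosome X, from 1491001 to 1493000, was picked by the rule of size. Its mean was 20.4 RPKM in the set-32 met-2 set-25 library and 16.8 RPKM in the hrde-1 mutant set-32 met-2 set-25 library, against 6.68 RPKM in the met-2 set-25 library and 3.02 RPKM in the met-2 set-25 hrde-1 library. The log2 difference was 1.78 ± 0.30 as deposited and 2.01 ± 0.28 after normalization (limma, adjusted p = 0.0046 and 0.0090). With MET-2 and SET-25 intact, set-32 and set-32 hrde-1 stood at 5.57 and 5.31 RPKM, against 19.1 and 8.94 RPKM in N2 and hrde-1. The direction of set-32 loss was thus opposite in the other background, and the difference passed the test (adjusted p = 0.0049 and 0.0277).

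In 3 further single bins of chromosome V the levels were lower and the groups again did not overlap. At 1159001 to 1160000 Pol II was 42.4 and 22.7 RPKM in the set-32 met-2 set-25 libraries, without and with hrde-1 loss, against 10.6 and 6.96 RPKM in their controls. At 2871001 to 2872000 it was 22.6 and 16.96 RPKM, against 5.33 and 4.55 RPKM. At 2118001 to 2119000 it was 16.5 and 9.13 RPKM, against 3.33 and 1.06 RPKM. Adjusted p was between 0.0061 and 0.0188 for these bins on either scale (limma).

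The only named higher bin on chromosome I, at 6846001 to 6847000, read 23.4 RPKM in the set-32 met-2 set-25 library and 37.2 RPKM in the hrde-1 mutant set-32 met-2 set-25 library, against 8.32 and 8.64 RPKM in the controls. The log2 difference was 1.69 ± 0.38 as deposited and 2.15 ± 0.36 after normalization (limma, adjusted p = 0.0468 and 0.0226). As deposited this call was lost with libraries centred on their median (adjusted p = 0.064), at a pseudocount of 0.5 (adjusted p = 0.066) and without any 1 of the 4 libraries (adjusted p from 0.066 to 0.491). Of the 20 higher regions, 4 were called as deposited only. In each of these 4 both controls had at most 2.27 RPKM. At 8589001 to 8590000 of chromosome V, for example, the set-32 met-2 set-25 libraries had 4.62 and 7.83 RPKM, against 0.33 and 0.76 RPKM in the controls, which at these depths is a few reads. Over all 20 regions the log2 difference ran from 1.48 to 2.33 as deposited and from 1.38 to 2.66 after normalization.

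In some higher regions the set-32 met-2 set-25 libraries stood apart from all the rest, in others the controls did. At 291001 to 292000 of chromosome IV they had 17.2 and 13.4 RPKM, against 6.32 and 2.42 RPKM in their controls, and the 4 libraries of the other background had 3.50 to 5.60 RPKM. At 14031001 to 14032000 of chromosome II they had 12.7 and 10.8 RPKM, against 2.33 and 1.67 RPKM, with 3.29 to 4.37 RPKM elsewhere. In both bins the 2 libraries lay above the other 6. At 7229001 to 7230000 of chromosome X it was instead the controls that stood below the other 6 libraries, with 26.1 and 20.6 RPKM in the set-32 met-2 set-25 libraries, against 10.7 and 2.73 RPKM in the controls, and 15.0 to 26.1 RPKM in the other background. Limma called all 3 bins on both scales, with adjusted p from 0.0061 to 0.0186.

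Among the lower regions, 1 bin at 504001 to 505000 of chromosome II stood apart. It read 8.85 RPKM in the set-32 met-2 set-25 library and 5.96 RPKM in the hrde-1 mutant set-32 met-2 set-25 library, against 116.5 RPKM in the met-2 set-25 library and 219 RPKM in the met-2 set-25 hrde-1 library. The log2 difference was -4.28 ± 0.44 as deposited and -4.66 ± 0.45 after normalization (limma, adjusted p = 0.0009 and 0.0033). The table marks this bin as misanotated. It also varied in the other background, at 6.94 and 16.4 RPKM in set-32 and set-32 hrde-1, against 52.3 RPKM in N2 and 15.5 RPKM in hrde-1, and the difference between backgrounds missed the threshold (adjusted p = 0.058 and 0.089).

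The bin at 4890001 to 4891000 of chromosome V was high in every library with SET-32 or with MET-2 and SET-25. It held 11.2 RPKM in the set-32 met-2 set-25 library and 13.2 RPKM in the hrde-1 mutant set-32 met-2 set-25 library, against 52.6 RPKM in the met-2 set-25 library and 84.3 RPKM in the met-2 set-25 hrde-1 library. The remaining 4 libraries lay between 41.9 and 69.0 RPKM, so both libraries that lacked all of SET-32, MET-2 and SET-25 fell below the other 6. The log2 difference was -2.36 ± 0.25 as deposited and -2.21 ± 0.22 after normalization (limma, adjusted p = 0.0009 and 0.0033), and the background difference passed the test on both scales (adjusted p = 0.0049 and 0.0277).

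Of the named lower regions, 5 lay on chromosome III, all of them at high Pol II levels. All 5 were named from the list of largest differences as deposited. The chromosome held 13.8% of the tested bins, 18.2% of the bins lower as deposited and 20.3% of those lower after normalization. From 4489001 to 4491000 the mean was 30.1 and 33.9 RPKM in the set-32 met-2 set-25 libraries, without and with hrde-1 loss, against 115 and 175 RPKM in their controls. At 7103001 to 7104000 the values were 18.5 and 29.4 RPKM, against 88.2 and 155 RPKM. At 3068001 to 3069000 they were 25.9 and 17.9 RPKM, against 90.9 and 152 RPKM. The highest of the 5, at 6971001 to 6972000, read 51.0 and 27.7 RPKM, against 155 and 284 RPKM. In these 4 the groups did not overlap, the log2 difference lay between -2.45 and -2.23 as deposited and between -2.08 and -1.85 after normalization, and adjusted p was at most 0.0154 on either scale (limma). N2 stood between 71.3 and 122 RPKM in the same 4 regions.

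Chromosome IV held a lower region of another kind. At 325001 to 326000 Pol II was 8.42 RPKM in the set-32 met-2 set-25 library and 6.85 RPKM in the hrde-1 mutant set-32 met-2 set-25 library, against 29.3 RPKM in the met-2 set-25 library and 67.3 RPKM in the met-2 set-25 hrde-1 library. The 4 libraries with MET-2 and SET-25 intact had 7.17 to 11.6 RPKM, so here it was the 2 controls that stood high. The log2 difference was -2.40 ± 0.31 as deposited and -2.69 ± 0.32 after normalization (limma, adjusted p = 0.0024 and 0.0086). In the longest lower region the controls also stood highest. From 10982001 to 10988000 of chromosome III, which joined 4 bins called as deposited and was singled out for its length after its values were seen, the mean was 9.59 and 8.26 RPKM in the set-32 met-2 set-25 libraries, against 29.3 and 30.3 RPKM in the controls. The others had 3.46 to 7.5 RPKM there.

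In 2 lower bins the libraries that lacked SET-32, MET-2 and SET-25 stood below all others at moderate levels. At 17273001 to 17274000 of chromosome IV they had 6.93 and 5.22 RPKM, against 24.3 and 25.9 RPKM in the controls, with 15.9 to 19.97 RPKM in the other background. At 7251001 to 7252000 of chromosome I they had 4.79 and 5.22 RPKM, against 15.3 and 17.9 RPKM, with 11.9 to 17.8 RPKM elsewhere. Adjusted p was 0.0019 and 0.0042 in the first bin and 0.0094 and 0.0090 in the second, as deposited and after normalization (limma).

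The fall could also be larger in one pair than in the other. From 421001 to 423000 of chromosome X the mean was 16.2 RPKM in the set-32 met-2 set-25 library, against 43.6 RPKM in the met-2 set-25 library, and 5.06 RPKM in the hrde-1 mutant set-32 met-2 set-25 library, against 59.1 RPKM in the met-2 set-25 hrde-1 library. The pair differences after normalization were -1.48 with hrde-1 intact and -3.58 with hrde-1 lost, and they differed by a limma test of the pair difference with 1 residual degree of freedom (adjusted p = 0.0106), while as deposited the test missed its threshold (adjusted p = 0.177).

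The 307 bins lower on both scales were in general not low elsewhere. Their median was 10.6 RPKM in the set-32 met-2 set-25 library and 10.4 RPKM in the hrde-1 mutant set-32 met-2 set-25 library, against 27.0 RPKM in the met-2 set-25 library and 37.1 RPKM in the met-2 set-25 hrde-1 library. The 4 libraries with MET-2 and SET-25 intact had medians of 21.7 to 27.4 RPKM. Of these bins 72.3% lay in the 2 highest deciles by N2 level. The bins 1 kb to either side had medians of 14.7 and 15.5 RPKM in the set-32 met-2 set-25 library, above the called bin itself, and of 25.6 and 30.8 RPKM in the met-2 set-25 hrde-1 library, below it. Since the bins were chosen for a difference in these 4 libraries, the shape of their profile is a description. In N2, which the choice used only through the shared error, 13.4% of them were higher than both neighbours, against 27.5% of all bins.

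The 65 bins higher on both scales had medians of 18.5 RPKM in the set-32 met-2 set-25 library and 14.2 RPKM in the hrde-1 mutant set-32 met-2 set-25 library, against 5.33 RPKM in the met-2 set-25 library and 4.09 RPKM in the met-2 set-25 hrde-1 library. N2 had 7.56 RPKM there. In the controls these bins were local troughs, with a median log2 value of -1.05 in the met-2 set-25 library and -1.08 in the met-2 set-25 hrde-1 library relative to their neighbours, against -0.04 and -0.14 in the set-32 met-2 set-25 libraries. N2 had -0.69 in the same bins.

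**Figure D3:**
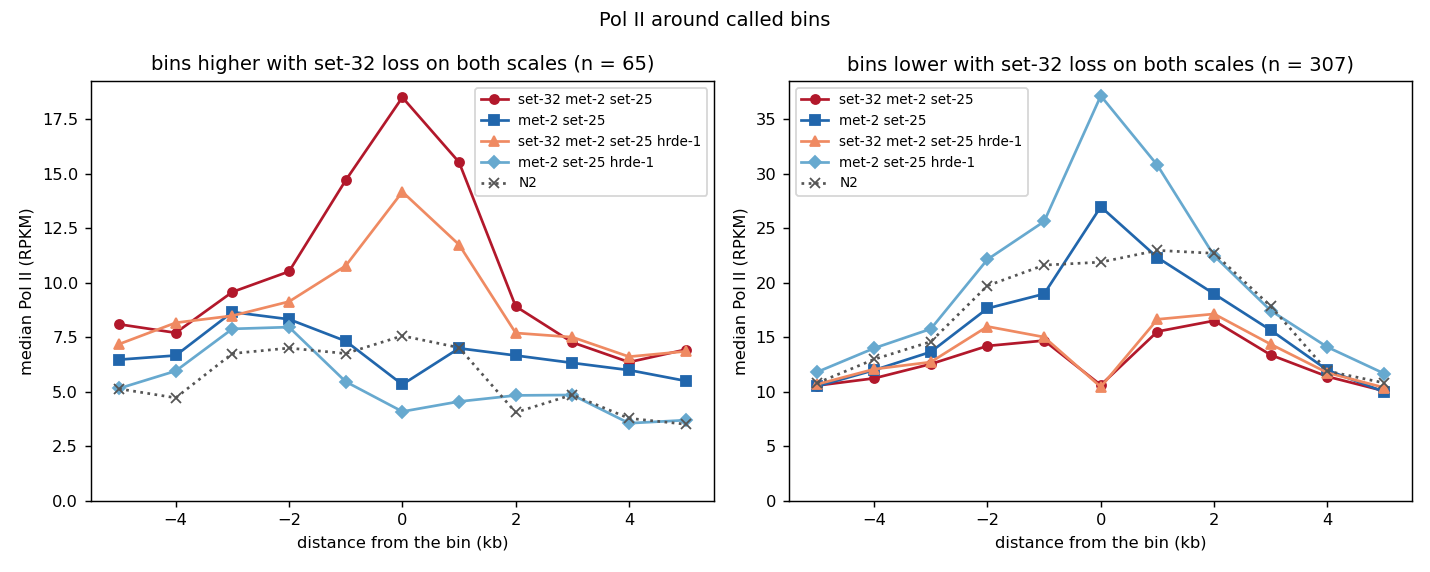
Median Pol II in RPKM within 5 kb of the 65 bins higher (left) and the 307 bins lower (right) on both scales, for the 4 libraries of the comparison and N2. The bins were chosen for the difference at 0 kb, where the set-32 met-2 set-25 libraries read 18.5 and 14.2 RPKM against 5.33 and 4.09 RPKM on the left, and 10.6 and 10.4 RPKM against 27.0 and 37.1 RPKM on the right, and the libraries approach each other by 5 kb.

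The table marks 191 bins as GRTS and 215 as GRH, 25 of them both. In this field the names stand for regions under transcriptional silencing, or with heterochromatin, that need germline nuclear RNAi. No source used here gives the rule behind the marks. It may have used libraries like these, so counts of marked bins give no independent support to any direction. Pol II at GRTS bins followed hrde-1 in the met-2 set-25 mutants, whether or not SET-32 was present. Their median was 7.84 RPKM in the set-32 met-2 set-25 library and 32.1 RPKM in the hrde-1 mutant set-32 met-2 set-25 library, against 5.66 RPKM in the met-2 set-25 library and 42.1 RPKM in the met-2 set-25 hrde-1 library.

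Set against its own control, the median GRTS bin differed by 0.39 in the hrde-1 intact pair and by -0.24 in the hrde-1 mutant pair as deposited, beside 0.19 and 0.38 over all tested bins. After normalization the medians were 0.29 and 0.19, beside -0.003 and 0.006, and with each library centred on its own median they were 0.18 and -0.76, so the direction in the hrde-1 mutant pair depended on the scaling. None of the 191 bins was called by limma on either scale. Over all tested bins 0.125% were called higher and 0.545% lower as deposited, and 0.22% and 0.497% after normalization. At such shares a list of 191 bins holds few calls or none. The model also has 1 hrde-1 term for all backgrounds, so gains with hrde-1 loss that differ between backgrounds add to its error. This limits calls at GRTS bins and at the other groups that respond to hrde-1 loss. At an unadjusted p under 0.05, 8 were higher and 9 lower as deposited, 4.19% and 4.71% of the GRTS bins beside 17.4% and 5.74% of all tested bins. After normalization 29 were higher and 12 lower, 15.2% and 6.28% beside 5.56% and 6.60%. The gain with hrde-1 loss had a median of 1.81 in set-32 met-2 set-25 animals, against 2.53 in met-2 set-25 animals, as deposited, and of 2.41, against 2.55, after normalization. With MET-2 and SET-25 intact the order was opposite. The gain there was 3.49 in set-32 animals, against 2.47 in N2, as deposited, and 2.97, against 2.18, after normalization.

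GRH bins showed a smaller gain with hrde-1 loss where SET-32 was also absent. Their median was 12.9 RPKM in the set-32 met-2 set-25 library and 18.0 RPKM in the hrde-1 mutant set-32 met-2 set-25 library, against 9.49 RPKM in the met-2 set-25 library and 25.03 RPKM in the met-2 set-25 hrde-1 library. The median gain with hrde-1 loss was 0.36, against 1.19 in met-2 set-25 animals, as deposited, and 0.41, against 1.19, after normalization. With MET-2 and SET-25 intact the gain was 0.58 in set-32 animals and 0.84 in N2 as deposited. The pair medians were 0.32 with hrde-1 intact and -0.39 with hrde-1 lost as deposited, and 0.43 and -0.09 after normalization. Centred on library medians they were 0.11 and -0.91.

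A test of this difference of gains, which is the difference between the 2 pairs, left 1 residual degree of freedom. After normalization it called 253 bins higher and 315 lower in the hrde-1 mutant pair than in the intact pair, 0.253% and 0.315% of all tested bins (limma, Benjamini-Hochberg adjusted p under 0.05). Of the 215 GRH bins 20 were called lower, which is 9.30%, and 0 higher. Of the GRTS bins 10 were called lower (5.24%) and 3 higher (1.57%). As deposited the test called 3 bins higher and 4 lower in all (0.003% and 0.004%), 1 of the lower ones a GRH bin and none a GRTS bin, so the call at these bins depended on the scale. In the main comparison 1 GRH bin was higher and 0 were lower on each scale, 0.465% and 0% of the GRH bins. Over all tested bins the shares were 0.125% and 0.545% as deposited, and 0.22% and 0.497% after normalization. At an unadjusted p under 0.05, 9 GRH bins were higher and 12 lower as deposited, 4.19% and 5.58% beside 17.4% and 5.74% of all tested bins. After normalization 26 were higher and 7 lower, 12.1% and 3.26% beside 5.56% and 6.60%.

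Bins that gained Pol II on hrde-1 loss where MET-2 and SET-25 were intact form a wider list of 528 bins, 354 of them outside GRTS. They were picked in libraries outside the comparison. Those libraries still enter the limma fit through its hrde-1 term and its error, so the calls below are not independent of the choice. The median over them was 8.82 RPKM in the set-32 met-2 set-25 library and 23.02 RPKM in the hrde-1 mutant set-32 met-2 set-25 library, against 6.43 RPKM in the met-2 set-25 library and 26.5 RPKM in the met-2 set-25 hrde-1 library. Limma called 4 higher and 0 lower as deposited, 0.758% and 0% of the list beside 0.125% and 0.545% of all tested bins. After normalization it called 5 higher and 0 lower, 0.947% and 0% beside 0.22% and 0.497%. At an unadjusted p under 0.05, 33 were higher and 21 lower as deposited, 6.25% and 3.98% beside 17.4% and 5.74% of all tested bins, and 91 were higher and 21 lower after normalization, 17.2% and 3.98% beside 5.56% and 6.60%.

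**Figure D4:**
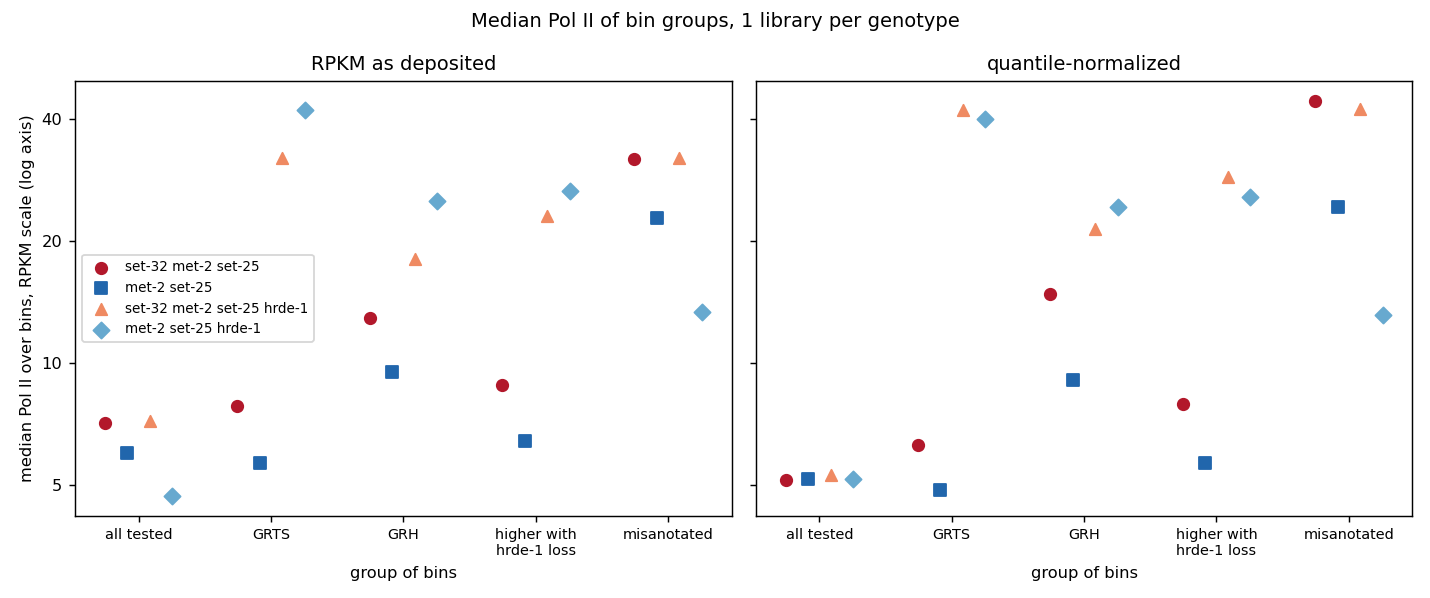
Median Pol II on an RPKM scale (log axis) in each of the 4 libraries for all tested bins, GRTS, GRH, bins higher with hrde-1 loss where MET-2 and SET-25 are intact, and misanotated bins, as deposited (left) and quantile-normalized (right). GRTS medians stand at 7.84 and 32.1 RPKM in the set-32 met-2 set-25 libraries, against 5.66 and 42.1 RPKM in their controls, and both set-32 met-2 set-25 libraries lie above both controls at misanotated bins on both scales.

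The remaining mark, misanotated, had a larger median difference in each pair than GRTS or GRH bins, on either scale. The median of these bins, 502 of which were tested, was 31.8 RPKM in the set-32 met-2 set-25 library and 32.1 RPKM in the hrde-1 mutant set-32 met-2 set-25 library, against 22.8 RPKM in the met-2 set-25 library and 13.3 RPKM in the met-2 set-25 hrde-1 library. The remaining 4 libraries had 11.5 to 16.2 RPKM. The pair medians were 0.45 with hrde-1 intact and 1.27 with hrde-1 lost as deposited, 0.76 and 1.58 after normalization, and 0.23 and 0.75 with libraries centred. Limma called 111 of the 502 bins higher after normalization, 22.1%, and 1 lower. As deposited 7 were higher and 1 was lower. Misanotated bins made up 50.5% of all higher calls after normalization, beside 0.502% of the tested bins.

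After normalization, but not as deposited, these bins also made up most of the longer higher stretches. As deposited 1 higher region held 3 or more called bins, from 1490001 to 1493000 of chromosome X, and 0 of its bins were so marked. After normalization 13 higher regions held 3 or more called bins, 12 of them included misanotated bins, and 50 of their 53 bins were so marked. The longest, 9 kb from 8573001 to 8582000 of chromosome IV, had a mean of 38.4 and 43.2 RPKM in the set-32 met-2 set-25 libraries, against 24.1 and 14.7 RPKM in the controls. From 292001 to 296000 of chromosome X the mean was 140 and 126 RPKM, against 75.3 and 45.1 RPKM. In both stretches both set-32 met-2 set-25 libraries stood above both controls, and the part of evenness in this was not tested. As deposited the lowest adjusted limma p was 0.059 in the stretch of chromosome IV and 0.049 in that of chromosome X. No source used here says why the authors marked these bins, and the part of the mark in the higher calls was not tested beyond leaving the bins out, which left 91 higher and 442 lower calls after normalization.

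Chromosomes differed in their share of lower calls. Chromosome X held 17.7% of the tested bins but 5.14% of the bins lower as deposited and 8.05% of those lower after normalization. Of its own tested bins 0.158% were lower as deposited and 0.226% after normalization, while on chromosomes I to IV the share ran from 0.655% to 0.764% as deposited and from 0.511% to 0.733% after normalization. Chromosome V held 20.8% of the tested bins, 38.4% of the higher calls as deposited and 25.9% of those after normalization. X and V were also the chromosomes of lowest median level, both at 3.51 RPKM in N2, and lower calls as deposited were absent from the 5 lowest deciles by N2 level, so the share of lower calls moved with level too.

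Within autosomes, called bins of both directions lay more often than bins in general in chromosome centres, the middle of 3 parts of equal length. Centres held 46.2% of autosomal bins lower as deposited and 44.6% of those lower after normalization, against 33.4% of all tested autosomal bins. For higher calls the shares were 42.4% and 43.9%. The median level in N2 was also higher in centres, at 5.40 RPKM, against 4.86 RPKM in arms. Centres and arms had pair medians of 0.14 and 0.16 in the hrde-1 intact pair, and of 0.25 and 0.38 in the hrde-1 mutant pair, as deposited. The median X bin differed by 0.33 and 0.57 in the 2 pairs as deposited, and by 0.03 and -0.01 after normalization. Chromosome V gave 0.28 and 0.61, and -0.01 and 0.08, while chromosome I gave 0.05 and 0.12, and -0.02 and -0.03.

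**Figure D5:**
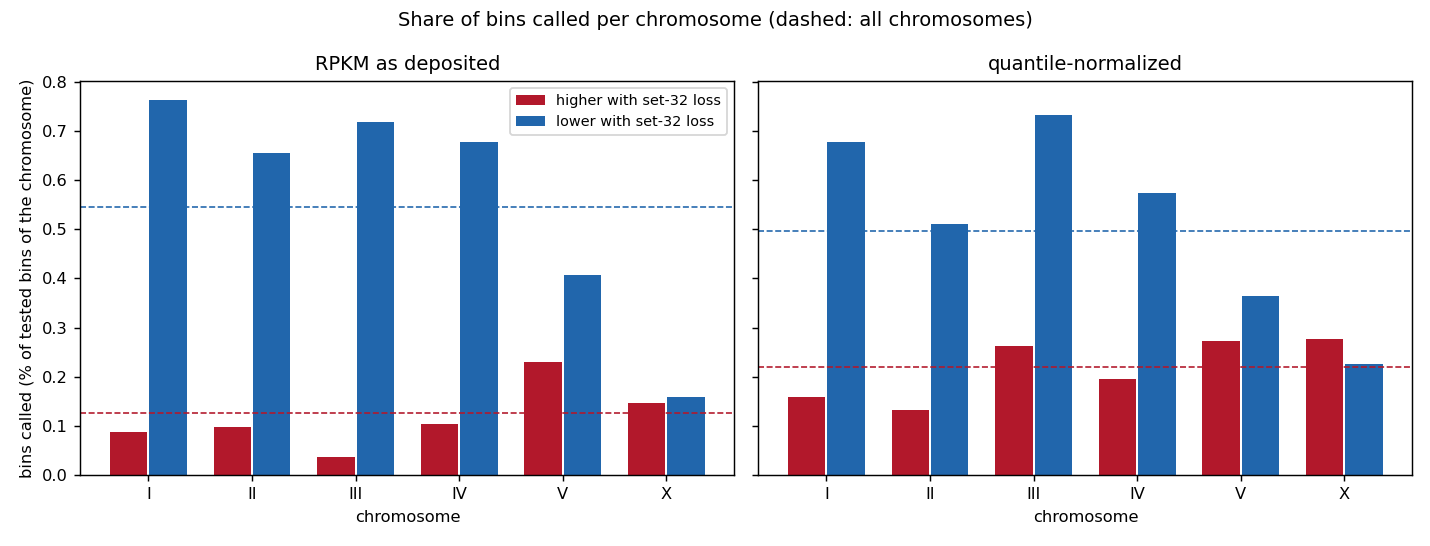
Percent of the tested bins of each chromosome called higher (red) or lower (blue) with set-32 loss in met-2 set-25 mutants by limma, as deposited (left) and quantile-normalized (right), with dashed lines at the share over all chromosomes. Lower bins are fewest on X, at 0.158% and 0.226%, and most frequent on I as deposited (0.764%) and on III after normalization (0.733%).

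The same loss with MET-2 and SET-25 intact, set-32 and set-32 hrde-1 against N2 and hrde-1, gave no called bin on either scale in the same limma fit (0%), with 5696 and 2368 bins at an unadjusted p under 0.05 as deposited and after normalization. By the rule of size 4 bins were higher and 13 lower in both pairs as deposited, and 0 and 1 after normalization. In this background set-32 hrde-1 and hrde-1 shared the prefix SG0117, while set-32 carried SG0117 and N2 carried SG0615. In the met-2 set-25 mutants both pairs differed in prefix. The 2 backgrounds are thus not matched in prefix, which limits any comparison of their counts. The difference between the 2 backgrounds was tested itself. It called 36 bins higher and 216 lower in the met-2 set-25 mutants as deposited (0.036% and 0.216%), and 7 higher and 25 lower after normalization (0.007% and 0.025%). Of the 307 bins lower on both scales, 262 had a fitted difference above 0 with set-32 loss in the other background as deposited, beside 38665 of all 100027 tested bins. The medians were 0.33 and -0.10. After normalization 252 had one, beside 51126, with medians of 0.26 and 0.008. All tested bins do not match the 307 in level, since 72.3% of the 307 lay in deciles 9 and 10 by N2. In these 2 deciles the pair medians of the other background as deposited were 0.079 and 0.079 with hrde-1 intact. With hrde-1 lost they were -0.009 and -0.019. The set-32 library, which had 520 bins at 0 and the highest ratio of percentiles, 24.96, enters the difference between backgrounds. Without it the test called 4 higher and 7 lower bins as deposited and 0 and 0 after normalization, without N2 it called 4 and 8, and 1 and 0, and without hrde-1 7 and 1, and 0 and 0. Without the met-2 set-25 library the counts were 1351 and 879, and 223 and 114, and without set-32 hrde-1 they were 6419 and 1283, and 35 and 14. Without either hrde-1 mutant library of the comparison they were 0 and 0 on both scales, and without the set-32 met-2 set-25 library 27 and 213, and 30 and 260.

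The pairs went opposite ways in a few bins. By the rule of size 43 bins moved by at least 1 in opposite directions as deposited, 74 after normalization and 28 on both scales (0.043%, 0.074% and 0.028%). Of the 28, 23 were higher in the hrde-1 mutant pair. The largest such difference, at 8397001 to 8398000 of chromosome IV, lay in a GRH bin. It read 35.0 RPKM in the set-32 met-2 set-25 library, against 8.99 RPKM in the met-2 set-25 library, and 26.1 RPKM in the hrde-1 mutant set-32 met-2 set-25 library, against 123 RPKM in the met-2 set-25 hrde-1 library. The hrde-1 loss thus went with higher Pol II in the met-2 set-25 animals and not in those that also lacked SET-32. At 10022001 to 10023000 of chromosome V the values were 18.0 RPKM, against 46.9 RPKM, in the hrde-1 intact pair and 82.2 RPKM, against 20.9 RPKM, in the hrde-1 mutant pair. The difference between the pairs had an adjusted p of 0.0044 and 0.0053 after normalization and of 0.0106 and 0.0365 as deposited in these 2 bins (limma).

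The longest stretch higher by the rule of size in both pairs, singled out after its values were seen, ran from 11757001 to 11762000 of chromosome II. It had 151 RPKM in the set-32 met-2 set-25 library and 35.6 RPKM in the hrde-1 mutant set-32 met-2 set-25 library, against 57.1 RPKM in the met-2 set-25 library and 7.46 RPKM in the met-2 set-25 hrde-1 library. The groups overlapped, since the control with hrde-1 intact lay above the hrde-1 mutant without SET-32, and the stretch was not called (limma, adjusted p = 0.130 as deposited and 0.171 after normalization). The remaining libraries ran from 5.40 RPKM in set-32 to 42.8 RPKM in N2.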

How the data were processed

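Pol II ChIP-seq was read in 8 libraries, 4 of them in the comparison. The deposited table holds RPKM per 1 kb bin, made by the authors, and 3 yes-or-no marks. The submitters' processing notes name Bowtie 0.12.7. No source used here gives the genome build, an input control, filters or the handling of reads with several matches. Library columns were tied to samples by name, and 35 of 43 had no match among the samples and stayed unused. The 3 H3K9me3 samples were not analysed here.

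Depth was estimated from the step between low values: in each library 83.0 to 84.4% of values up to 8 RPKM came within 0.1 read of a whole one. As the others did not, no count model was applied. Bins averaging 2 RPKM or more were tested with limma 3.58.1 in R 4.3.3 (moderated, with an intensity trend, two-sided, Benjamini-Hochberg adjusted, threshold 0.05) on log2(RPKM + 1). This scale understates changes of low bins. The model had terms for hrde-1, for met-2 set-25, and for set-32 within each background. It was run on the values as deposited and after quantile normalization over the 8 libraries. The difference between pairs added 2 terms, hrde-1 by met-2 set-25 and hrde-1 by set-32 in met-2 set-25 mutants. Medians and figures were made in Python 3.11.15 with pandas 2.3.3, numpy 2.4.6 and, for plots, matplotlib 3.10.9.

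Named regions are the 10 per direction with the largest mean log2 difference among called regions, on each scale, the 10 per direction past the rule of size on both scales, and the 4 bins with the largest opposite differences. Regions named otherwise are said to be. A bin was taken as higher with hrde-1 loss where it passed the rule of size in both hrde-1 pairs with MET-2 and SET-25 intact. The members and lists were chosen with earlier results of these data known. Alternatives covered the pseudocount, the filter on low values, library scaling, model terms, the column prefix, the misanotated bins and leaving out each library.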

Additional observations from a re-analysis of the deposited data

Results flagged for a closer look

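In 24 of the 40 regions named as higher or lower, the effect of set-32 loss differed between met-2 set-25 mutants and animals with MET-2 and SET-25 intact by limma as deposited or after quantile normalization. The regions were chosen for their effect in met-2 set-25 mutants, which is part of this difference, so the count gives no independent support. The backgrounds are also not matched in column prefix. Over all tested bins the same test called 0.036% higher and 0.216% lower as deposited, and 0.007% and 0.025% after normalization. Values are the log2 effect in met-2 set-25 mutants minus that in the other background, as deposited. The higher regions on chromosome V gave 2.98 at 20157001, 2.84 at 2118001, 2.39 at 2871001, 2.32 at 13384001, 3.53 at 18585001, 3.02 at 8589001, 2.76 at 7315001 and 2.06 at 10850001, where each number after "at" is the start of the region. On chromosome IV the difference was 3.11 at 13083001 and 2.11 at 13037001. Chromosome II gave 2.30 at 14031001 and 2.79 at 6159001, and chromosome X gave 2.41 at 7229001 and 2.88 at 1491001.

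Differences below 0 belonged to the lower regions. On chromosome III they were -3.18 at 6971001, -3.15 at 3068001, -2.65 at 10747001, -2.89 at 7103001 and -2.77 at 4489001. Chromosome IV gave -2.73 at 325001 and -2.06 at 17273001, chromosome V gave -2.82 at 4890001, chromosome II gave -2.77 at 8602001 and chromosome I gave -2.64 at 3368001. After quantile normalization the difference kept an adjusted p under 0.05 in 3 of the higher and 7 of the lower regions.

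In 4 single bins the hrde-1 mutant pair and the hrde-1 intact pair went opposite ways, and the difference between the pairs passed the limma test after normalization. The log2 difference of the pairs was -4.02 at 8397001 of chromosome IV, 3.57 at 10022001 of chromosome V, 3.42 at 2899001 of chromosome IV and -3.34 at 7143001 of chromosome X. As deposited the last 2 had adjusted p = 0.092 and 0.229.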

How the results depend on the processing

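Counts below give higher, then lower bins. As deposited, the main comparison (125 and 545) ranged from 4 to 2114 and from 4 to 1301 when each of the 8 libraries was left out. After normalization (220 and 497) it ranged from 4 to 401 and from 0 to 681. Without met-2 set-25 the counts were 1588 and 1157, and 401 and 324; without N2, 59 and 329, and 69 and 226; without hrde-1, 52 and 331, and 77 and 241. Omitting set-32 gave 2057 and 1243 as deposited, and omitting set-32 hrde-1 gave 2114 and 1301. A leave-out may leave a genotype arm with 1 library, assumed to vary like the rest. With the column prefix as a term, 39 and 3 bins were called as deposited, of which 2 and 1 were among the main calls, and 12 and 0 after normalization, of which 0 were. The 4 libraries alone gave 5416 and 1783 with hrde-1 status as a covariate, and 722 and 857 after normalization (684 and 800 when normalized over those 4). Without that covariate they gave 0 and 1 on each scale.

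Other settings as deposited gave 68 higher bins at a pseudocount of 0.5, 3783 and 1441 at 5, 38 higher with a mean filter of 5 RPKM, 244 higher with an hrde-1 by met-2 set-25 term, and 2283 lower with libraries centred on their median, where 130 were higher. After normalization they gave 135 higher with a mean filter of 5 RPKM, 95 and 265 with the added term, and 91 higher without misanotated bins.

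The difference between backgrounds (36 and 216 as deposited, 7 and 25 after normalization) ranged with each library left out from 0 to 6419, 0 to 1283, 0 to 223 and 0 to 260. As deposited it was 21 higher at a pseudocount of 0.5, 155 and 325 at 5, 9 and 65 with a mean filter of 5 RPKM, 148 higher with the prefix term, and 59 and 1238 centred. After normalization it was 3 and 6 with a mean filter of 5 RPKM, 0 and 0 with the added term, and 2 and 1 with the prefix term. The difference between pairs (253 and 315) was 140 and 187 at a pseudocount of 0.5 and 3 and 4 as deposited. The rule of size (81, 402 and 43 opposite) gave 10, 50 and 1 at a log2 difference of 1.5, 235 higher and 74 opposite after normalization, 26 and 1330 centred, and 25, 193 and 17 at a pseudocount of 5. The difference between a pair's 2 library medians over X bins, averaged over the pairs, was 0.56 as deposited. It was 0.046 after normalization and 0.20 centred. Where no construction shows the cause of a change, the cause was not tested.

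The 40 higher and lower regions were refitted after normalization, centred, at pseudocounts of 0.5 and 5 and without each of the 4 libraries of the comparison, and none changed sign there. The 4 bins with opposite pairs were not refitted. Replicate numbers name single libraries, so no block on them was fitted. The pairs share hrde-1 status, which is a term of the model. Depth limits low bins, where a control near 0.33 RPKM is a few reads.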
